A study of Sus scrofa with 15 samples.

Results

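A set of 36 genes stood highest in the pig mammary gland close to 2 d prepartum and was lower both at 14 d prepartum and at 1 d postpartum. The set was chosen from its own levels, given as CPM, counts scaled to a common library size, with the trimmed mean of M values (TMM, which corrects each library for the share of its reads taken by a few very abundant genes). A gene was a member when its mean at 2 d prepartum was at least 1.5 times the mean at 14 d prepartum and at least 1.5 times the mean at 1 d postpartum, when all 3 libraries of 2 d prepartum lay above all 3 libraries of each of those time points, and when its highest mean was at least 5 CPM. Of the 25322 genes listed, 13503 reached 1 CPM in at least 3 libraries and were tested, and the members were 0.267% of these. All 36 members passed the filter on low values by this definition, so neither their number nor their direction between 14 d prepartum, 2 d prepartum and 1 d postpartum was a finding, and those differences are given below as a description with no test.

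Mammary biopsies were taken from 3 second-parity sows, crosses of Danish Landrace and Yorkshire, at 14, 10, 6 and 2 d prepartum and at 1 d postpartum, called day -14, -10, -6, -2 and +1 where values are listed. This gave 15 libraries of polyadenylated RNA, 3 at each time point. Per the study's methods the sows were those with the highest colostrum yield and each was fed a different diet. A difference between sows therefore cannot be told apart from one between diets, and no untreated or non-pregnant group was included. By the gestation days given in the paper, which are approximate, the diets appear to have started after the earliest biopsies. A change of diet therefore cannot be told apart from a change with time, in comparisons with the earliest time point or in the step tested below. The part of the start of the diets was not tested. The libraries of a time point are given below in the order of their replicate numbers, which is also the order of the sows (sow 1, 2 and 3). Repeated biopsies of the same sows make the time points related samples, and in a piece of tissue a change in the number of cells of a type and a change in RNA per cell cannot be told apart.

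The mammary gland of a sow fills with secretory alveoli in late gestation, accumulates colostrum in the last days before farrowing, and starts copious milk secretion around birth, when progesterone falls and prolactin rises. Most milk protein genes increase through this whole period. A gene that is raised late in gestation and is low again after birth therefore follows a different course from that of the caseins. CSN2, the beta-casein gene, had a mean of 2144 CPM at 14 d prepartum, 66226 CPM at 2 d prepartum and 108941 CPM at 1 d postpartum, so that the tissue label held. By library it was 68067, 97481 and 33129 CPM on day -2 and 248107, 20610 and 58105 CPM on day +1. The increase of CSN2 across birth therefore did not hold in sow 2, where it was lower at 1 d postpartum.

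The rule was narrow. The mean at 2 d prepartum was at least 1.5 times that of 14 d prepartum in 1115 genes and at least 1.5 times that of 1 d postpartum in 1388 genes, and 124 genes met both conditions. In 78 of these 124 at least 1 library of 2 d prepartum did not clear the other time points, and 10 of the remaining 46 stayed under 5 CPM. Just inside the limit on the fold lay AMOT and TGFBR3, each with a ratio of 1.51 between the mean at 2 d prepartum and the higher of the other means, and just outside lay MEA1 with a ratio of 1.49 and TIPARP with a ratio of 1.48. The lowest library of 2 d prepartum was 1.02 times the highest library of the other 2 time points in IL13RA2, and 0.971 times in CES3, which was left out. CRISPLD2 entered with a highest mean of 6.25 CPM, while B3GNT4 was left out with 4.39 CPM.

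Single libraries and the scaling decided how many genes met the rule. Total counts ran from 10782343 to 19952918 per library. Replicate 37 at 1 d postpartum stood apart, with 53.8% of its reads on its 10 most abundant genes and a TMM factor of 0.545, against 16.6% to 35.7% and 0.829 to 1.24 in the other 14 libraries. Without it 110 genes met the rule and 33 of the 36 members were among them, and without replicate 34 at 2 d prepartum 66 genes did, 32 of them members. Without replicate 31 at 2 d prepartum the number was 41, but it held only 24 of the 36. With CPM of total counts and no TMM scaling 24 genes met the rule and 9 of these were members. Those 9 were CYP1A1, ASAH2, NAAA, MAGED1, MSTN, DAPK2 and 3 genes with no name. The other 27 met the rule with TMM scaling and with RLE size factors, but not with total counts alone.

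Names were available for 25 of the 36 members, and the other 11 carried only an Ensembl identifier. Their levels spanned a wide range: the mean at 2 d prepartum was under 20 CPM in 13 members and over 100 CPM in 12, with a median of 42.6 CPM. Per kilobase of exon, the quantity in which genes can be compared, the highest named members at 2 d prepartum were MSTN with 1225 CPM per kilobase, C6orf62 with 729.8, PGRMC1 with 422 and MAGED1 with 235. The lowest were NCKAP5 with 1.80 and ASAH2 with 1.96 CPM per kilobase. All members together took 0.596% to 0.638% of the counts at 14 d prepartum, 0.790% to 1.01% at 2 d prepartum and 0.203% to 0.245% at 1 d postpartum.

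**Figure D1:**
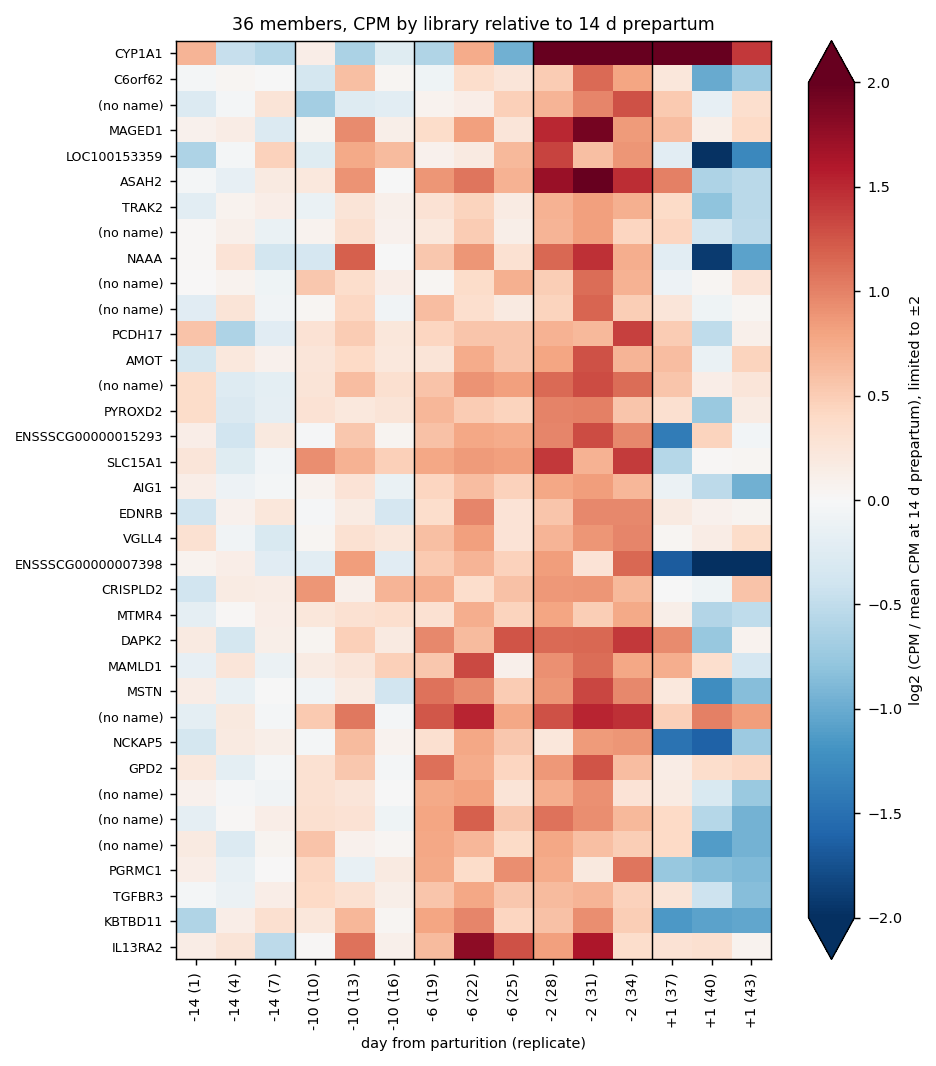
Heat map of the 36 members (rows, ordered by the share of their difference between 14 d and 2 d prepartum reached at 6 d prepartum, smallest at the top) in the 15 libraries (columns, by day from parturition with the replicate number in brackets). Colour gives the log2 of CPM over the mean CPM at 14 d prepartum, limited to 2 in either direction. CYP1A1 in the top row is raised only from 2 d prepartum on, while the rows at the bottom, with IL13RA2 the last, are already as high at 6 d prepartum as at 2 d prepartum.

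The course up to 2 d prepartum differed between members. The levels at 10 d and at 6 d prepartum entered their choice only through the filter on low values, the TMM scaling and the limit on the highest mean. Every member also passed that limit of 5 CPM by its mean at 2 d prepartum. In 27 of the 36 the mean was higher after each of the 3 steps from 14 d to 2 d prepartum. All 3 libraries of 6 d prepartum lay above all 3 of 14 d prepartum in 27 members also. Both counts share libraries with the rule, which favours them, and the same shares of all tested genes were not determined. The mean at 6 d prepartum was at least 1.5 times that at 14 d prepartum in 17 members (47.2%), against 4.67% of all tested genes, again with libraries of the rule. The share of the difference between 14 d and 2 d prepartum that was already present at 6 d prepartum had a median of 60.3%. In 6 members it was under 30%, in 23 between 30% and 90%, and in 7 over 90%. The named members under 30% were CYP1A1, C6orf62, MAGED1, LOC100153359 and ASAH2, and those over 90% were PGRMC1, TGFBR3, KBTBD11 and IL13RA2. For IL13RA2, KBTBD11 and TGFBR3 the mean at 6 d prepartum was above that at 2 d prepartum, so the description of a peak at 2 d prepartum did not hold for these 3 genes and their highest mean fell at 6 d prepartum.

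The largest difference was that of CYP1A1, a cytochrome P450 of the endoplasmic reticulum that oxidises aromatic hydrocarbons and oestradiol and is the classical target gene of the aryl hydrocarbon receptor (chr7:63491454-63497651; all coordinates are those of the Sscrofa10.2 assembly in the deposited files). The CPM of CYP1A1 was 0.917, 0.419 and 0.388 on day -14, 0.631, 0.372 and 0.484 on day -10, 0.379, 0.959 and 0.296 on day -6, 12.6, 32.1 and 90.3 on day -2 and 3.92, 5.75 and 1.54 on day +1. It was under 1 CPM in all 9 libraries up to 6 d prepartum, and the 3 libraries of 2 d prepartum differed widely among themselves, with a mean of 45.01 ± 40.5 CPM (n = 3, SD). The mean at 2 d prepartum was 78.3 times that at 14 d prepartum and 12.1 times that at 1 d postpartum, when the level was still 6.50 times that of 14 d prepartum. Without replicate 34 these ratios of 2 d prepartum were 38.9 and 5.98. Replicate 34, with the highest CYP1A1, had the lowest CSN2 of the 3 libraries of 2 d prepartum, 33129 CPM against 68067 and 97481.

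PGRMC1, a haem-binding membrane protein that associates with cytochrome P450 enzymes, was abundant throughout (chrX:113925761-113933800). The CPM of PGRMC1 was 631, 515 and 575 on day -14, 761, 519 and 651 on day -10, 972, 738 and 1089 on day -6, 956, 654 and 1199 on day -2 and 338, 323 and 311 on day +1. The 3 libraries of 1 d postpartum were close together and lay below all the others, while at 6 d and 2 d prepartum the means were the same within their spread, 933 ± 178 CPM (n = 3, SD) and 936 ± 273 CPM (n = 3, SD). PYROXD2, an oxidoreductase-like protein of mitochondria, was a low gene (chr14:119116728-119128192). The CPM of PYROXD2 was 4.95, 3.14 and 3.40 on day -14, 4.69, 4.41 and 4.60 on day -10, 6.06, 5.43 and 5.22 on day -6, 7.58, 7.69 and 5.61 on day -2 and 4.77, 2.28 and 4.31 on day +1. The libraries of 2 d and 6 d prepartum overlapped, and the span of PYROXD2 overlaps that of another listed gene on the same strand, so that its reads may be split between them.

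Several members act on lipids. ASAH2 encodes neutral ceramidase, which cleaves ceramide into sphingosine and a fatty acid at the cell surface (chr14:107865223-107969314). The CPM of ASAH2 was 2.38, 2.18 and 2.77 on day -14, 2.84, 4.57 and 2.42 on day -10, 4.49, 5.11 and 3.94 on day -6, 8.10, 16.1 and 6.79 on day -2 and 4.94, 1.59 and 1.68 on day +1. All libraries of 2 d prepartum lay above all the others, by 4.23 times 14 d prepartum and 3.78 times 1 d postpartum in the mean, and replicate 31 was the highest. Without replicate 37 the ratio to 1 d postpartum was 6.32. Without replicate 31 that ratio was 2.72, and the ratio to 14 d prepartum was 3.05. NAAA encodes a lysosomal amidase that cleaves N-acylethanolamines such as palmitoylethanolamide (chr8:75709379-75738808). The CPM of NAAA was 50.2, 59.2 and 38.2 on day -14, 39.2, 113 and 49.2 on day -10, 71.9, 90.6 and 60.7 on day -6, 109, 135 and 81.3 on day -2 and 42.7, 13.1 and 23.5 on day +1. Replicate 13 at 10 d prepartum reached the range of 2 d prepartum, and the mean at 1 d postpartum was 0.537 times that at 14 d prepartum.

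AIG1 encodes a hydrolase of fatty acid esters of hydroxy fatty acids (chr1:24300316-24415793). The CPM of AIG1 was 37.8, 31.9 and 33.4 on day -14, 36.3, 41.4 and 31.4 on day -10, 46.4, 52.5 and 47.1 on day -6, 58.7, 61.5 and 54.5 on day -2 and 31.7, 23.8 and 17.6 on day +1. Its replicates were tight at every prepartum time point, and the groups of 6 d and 2 d prepartum did not overlap. MTMR4, a lipid phosphatase of endosomes that removes the 3-phosphate of phosphoinositides, differed in smaller steps (chr12:36044800-36069940). The CPM of MTMR4 was 97.02, 112 and 121 on day -14, 129, 135 and 139 on day -10, 136, 182 and 149 on day -6, 189, 154 and 187 on day -2 and 119, 73.1 and 77.2 on day +1. The range of 6 d prepartum overlapped that of 2 d prepartum. GPD2, the mitochondrial glycerol 3-phosphate dehydrogenase of the glycerol phosphate shuttle, went from 21.01 ± 2.93 CPM (n = 3, SD) at 14 d prepartum to 40.2 ± 9.30 CPM (n = 3, SD) at 2 d prepartum and 25.95 ± 2.35 CPM (n = 3, SD) at 1 d postpartum, and a listed gene on the other strand overlaps its span.

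Of the members that carry cargo, SLC15A1 encodes PEPT1, the proton-coupled transporter that takes up di- and tripeptides and is best known from the small intestine (chr11:74889142-74924577). The CPM of SLC15A1 was 68.8, 49.00 and 55.8 on day -14, 109.8, 94.1 and 80.8 on day -10, 98.9, 105 and 102 on day -6, 154, 93.3 and 152 on day -2 and 38.98, 58.8 and 59.6 on day +1. It was the member with the most even replicates at 6 d prepartum, with a mean of 102 ± 3.01 CPM (n = 3, SD), and unlike most members it was lowest in replicate 31 among the libraries of 2 d prepartum. TRAK2 encodes an adaptor that links mitochondria to kinesin motors (chr15:116383931-116416265). The CPM of TRAK2 was 68.9, 83.9 and 87.5 on day -14, 73.4, 96.2 and 86.4 on day -10, 97.6, 109 and 89.96 on day -6, 130.1, 141 and 132 on day -2 and 105, 45.7 and 54.8 on day +1. The 3 libraries of 2 d prepartum differed little, and all lay above the 12 other libraries.

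**Figure D2:**
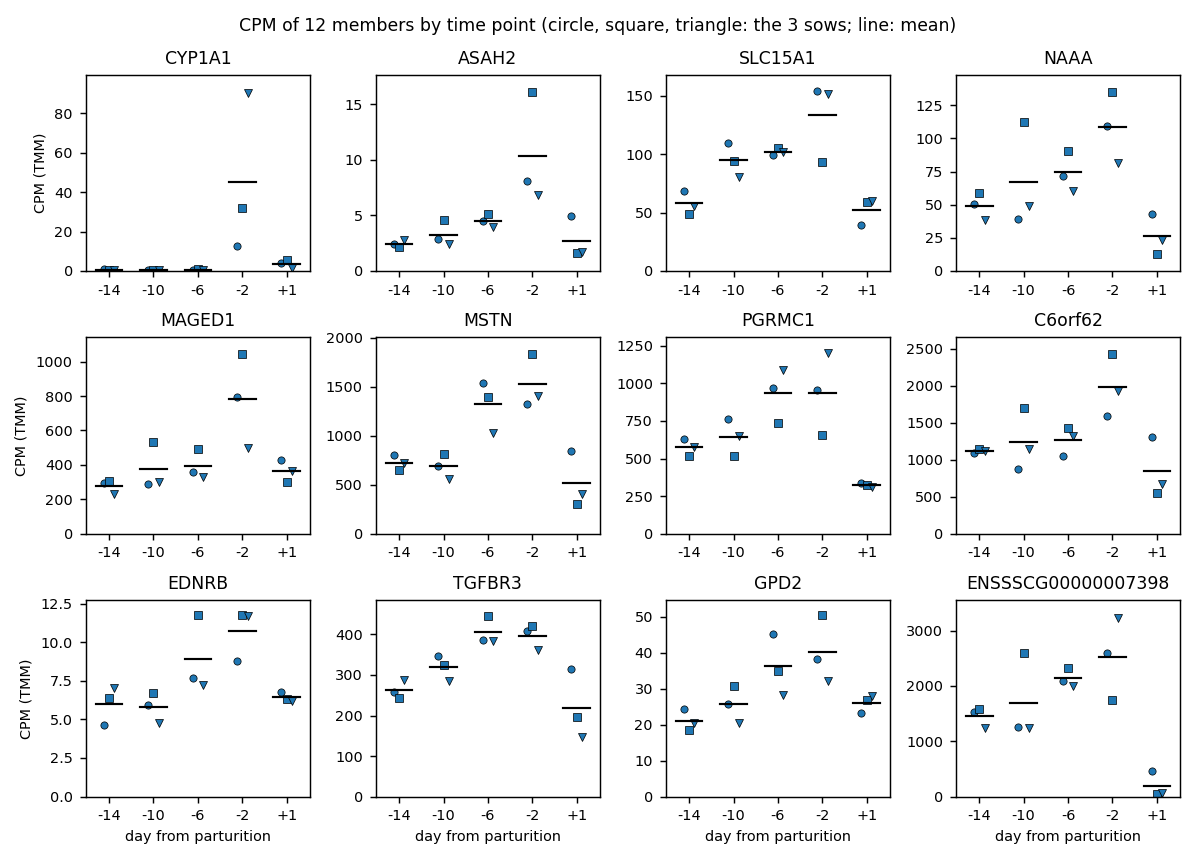
CPM (vertical axis, linear and starting at 0) of 12 members by day from parturition; each symbol is a library, with the same symbol for the same sow, and the line is the mean of 3. CYP1A1 departs from its base level only at 2 d prepartum, MSTN has a mean of 1319 CPM at 6 d prepartum after 687 CPM at 10 d, and ENSSSCG00000007398 drops from a mean of 2521 CPM at 2 d prepartum to 192 CPM at 1 d postpartum.

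Among secreted factors and receptors, MSTN was the highest named member per kilobase. It encodes myostatin, a ligand of the transforming growth factor beta family that limits skeletal muscle growth (chr15:105734307-105739335). The CPM of MSTN was 802, 649.9 and 717 on day -14, 692, 812 and 557 on day -10, 1539, 1393 and 1027 on day -6, 1327, 1831 and 1408 on day -2 and 839.7, 306 and 402 on day +1. The libraries of 6 d and of 2 d prepartum lay above all those of 14 d and 10 d prepartum, and at 1 d postpartum the level was high in replicate 37 and low in both others. Of 8 skeletal muscle markers 3 were measured, and their summed level was 3.14 to 3.35 CPM at 14 d prepartum, 3.10 to 4.98 CPM at 2 d prepartum and 11.6 to 28.1 CPM at 1 d postpartum. The part of muscle tissue in the level of MSTN was not tested. TGFBR3 encodes betaglycan, a co-receptor of the same ligand family, and its mean went from 263 ± 22.98 CPM (n = 3, SD) at 14 d prepartum over 405 ± 36.1 CPM (n = 3, SD) at 6 d and 396 ± 30.96 CPM (n = 3, SD) at 2 d prepartum to 219 ± 86.2 CPM (n = 3, SD) at 1 d postpartum.

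EDNRB encodes the endothelin B receptor, found on endothelium, smooth muscle and other cells (chr11:54691946-54718001). The CPM of EDNRB was 4.63, 6.37 and 7.03 on day -14, 5.91, 6.70 and 4.74 on day -10, 7.69, 11.8 and 7.24 on day -6, 8.79, 11.7 and 11.7 on day -2 and 6.81, 6.35 and 6.21 on day +1. Both high libraries of 2 d prepartum and replicate 22 at 6 d prepartum were alike, and all the rest lay below. The 8 endothelial markers measured of 10 had a summed level of 459.7 to 509 CPM at 14 d prepartum, 490.2 to 523 CPM at 2 d prepartum and 398 to 477 CPM at 1 d postpartum. IL13RA2 encodes the decoy receptor of interleukin 13 (chrX:108965153-109001627). The CPM of IL13RA2 was 3.53, 3.81 and 2.23 on day -14, 3.25, 6.81 and 3.44 on day -10, 4.93, 11.03 and 7.69 on day -6, 5.61, 9.75 and 4.06 on day -2 and 3.92, 3.97 and 3.36 on day +1. Its highest library was replicate 22 at 6 d prepartum, and its lowest library of 2 d prepartum lay just above those of 14 d prepartum and 1 d postpartum, but below all 3 of 6 d prepartum. CRISPLD2, a secreted glycoprotein, had means between 3.58 and 6.25 CPM.

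MAGED1, an adaptor protein of the MAGE family that binds the neurotrophin receptor p75, was highest at 2 d prepartum by a wide step (chrX:50632385-50702990). The CPM of MAGED1 was 296, 309 and 230.2 on day -14, 289, 535 and 301 on day -10, 358, 490.2 and 328 on day -6, 796, 1046 and 501 on day -2 and 427, 303 and 367 on day +1. Its step from 6 d to 2 d prepartum was 1.99-fold in the mean, and replicate 13 at 10 d prepartum was within the range of 2 d prepartum. Another listed gene lies across it on the other strand. DAPK2, a calmodulin-regulated death-associated protein kinase, was close to its highest level by 6 d prepartum (chr1:118993358-119044819). The CPM of DAPK2 was 5.73, 3.94 and 5.43 on day -14, 5.23, 6.97 and 5.71 on day -10, 9.80, 7.83 and 12.02 on day -6, 10.99, 11.1 and 13.4 on day -2 and 9.70, 2.98 and 5.26 on day +1. All libraries of 6 d prepartum were above all of 10 d prepartum, and replicate 37 at 1 d postpartum stayed near the level of 6 d prepartum.

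VGLL4 and AMOT both act on the Hippo pathway, the former as a cofactor that competes with YAP for TEAD transcription factors and the latter as a membrane scaffold that binds YAP. The CPM of VGLL4 was 39.6, 30.7 and 26.1 on day -14, 33.1, 39.6 and 37.4 on day -10, 49.00, 56.5 and 38.7 on day -6, 51.4, 59.2 and 63.3 on day -2 and 32.9, 35.6 and 41.5 on day +1. Its mean at 1 d postpartum was 1.14 times that at 14 d prepartum (chr13:74919168-74925175). AMOT had means of 54.2 ± 10.4 CPM (n = 3, SD) at 14 d prepartum, 104 ± 23.6 CPM (n = 3, SD) at 2 d prepartum and 68.99 ± 17.5 CPM (n = 3, SD) at 1 d postpartum. MAMLD1, a mastermind-like protein, had means of 7.19 ± 1.15 CPM (n = 3, SD), 13.8 ± 1.64 CPM (n = 3, SD) and 8.91 ± 3.11 CPM (n = 3, SD) at the same time points.

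PCDH17 encodes a protocadherin, a cell adhesion protein (chr11:32000815-32142625). The CPM of PCDH17 was 54.2, 23.7 and 31.05 on day -14, 44.5, 51.8 and 42.4 on day -10, 49.00, 53.3 and 53.5 on day -6, 59.1, 56.7 and 93.4 on day -2 and 51.4, 25.5 and 38.8 on day +1. Replicate 34 was far above both others at 2 d prepartum, whereas replicates 28 and 31 were close to the highest libraries of 6 d prepartum. NCKAP5 was a low gene (chr15:21862472-21927980). The CPM of NCKAP5 was 4.08, 5.87 and 5.63 on day -14, 5.05, 8.03 and 5.47 on day -10, 6.50, 8.90 and 7.54 on day -6, 6.08, 9.32 and 9.52 on day -2 and 1.87, 1.69 and 3.14 on day +1. It was lower in all 3 libraries of 1 d postpartum than in any library before birth. KBTBD11, a protein with kelch repeats and a BTB domain, behaved alike after birth (chr15:38048838-38050850). The CPM of KBTBD11 was 10.7, 17.8 and 20.3 on day -14, 19.1, 25.7 and 16.8 on day -10, 28.2, 32.1 and 21.9 on day -6, 24.4, 30.9 and 22.8 on day -2 and 7.32, 7.74 and 7.97 on day +1. Its mean at 1 d postpartum was 0.471 times that at 14 d prepartum, and that of NCKAP5 was 0.430 times.

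C6orf62 was abundant in every library (chr7:20661720-20675397). The CPM of C6orf62 was 1089.7, 1143 and 1114 on day -14, 878, 1698 and 1149.8 on day -10, 1047, 1427 and 1316 on day -6, 1594, 2434 and 1926 on day -2 and 1306, 554 and 673 on day +1. The 3 libraries of 14 d prepartum were nearly equal, and apart from replicate 13 the libraries of 10 d and 6 d prepartum lay below all those of 2 d prepartum. LOC100153359 was the member with the lowest log2 fold change from 10 d to 6 d prepartum (chr11:71298810-71453998). The CPM of LOC100153359 was 10.4, 15.5 and 21.98 on day -14, 13.5, 26.97 and 24.7 on day -10, 17.00, 18.2 and 24.9 on day -6, 40.6, 24.2 and 29.6 on day -2 and 13.8, 4.07 and 6.51 on day +1. Its libraries of 10 d prepartum overlapped those of 2 d prepartum, and a listed gene lies across it on the other strand.

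The unnamed members included the most abundant of the set, also per kilobase of exon (8159 CPM per kilobase at 2 d prepartum). ENSSSCG00000007398 (chr17:53422773-53425930, with 309 bases of exon) lies 6.15 kb from PIGT and 106 kb from another unnamed member. The CPM of ENSSSCG00000007398 was 1520.1, 1589 and 1237 on day -14, 1254, 2593 and 1244 on day -10, 2085, 2315 and 2004 on day -6, 2594, 1747 and 3222 on day -2 and 458, 53.4 and 63.5 on day +1. No member was lower after birth relative to its starting level: its mean at 1 d postpartum was 0.132 times that at 14 d prepartum, and replicate 37 was far above both other libraries of that day. Without it the mean was 0.0403 times that at 14 d prepartum. ENSSSCG00000015293 (chr9:74571783-74604181) had the highest ratio among the unnamed members, 2.12. The CPM of ENSSSCG00000015293 was 14.7, 10.23 and 15.3 on day -14, 13.2, 19.5 and 13.9 on day -10, 20.1, 23.01 and 22.4 on day -6, 26.2, 32.99 and 26.1 on day -2 and 5.11, 18.2 and 12.9 on day +1. Its mean was higher after each prepartum step, with no overlap between 6 d and 2 d prepartum. The 9 other unnamed members had means of 5.36 to 107 CPM at 2 d prepartum and ratios of 1.54 to 1.86 over the higher of the other means.

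After birth the members lay on either side of their starting level. The mean at 1 d postpartum was below that at 14 d prepartum in 19 members and above it in 17. It was under 0.5 times the level of 14 d prepartum in 3, ENSSSCG00000007398, NCKAP5 and KBTBD11. Replicate 37 held the highest value of 1 d postpartum in 25 of the 36 members (69.4%), against 40.4% of all tested genes. These comparisons share their libraries with the rule.

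The sows were not alike. At 10, 6 and 2 d prepartum the highest library of a member was most often that of sow 2: replicate 13 in 23 of 36 members, replicate 22 in 24 and replicate 31 in 23. These are 63.9%, 66.7% and 63.9% of the members, where the same libraries were the highest in 36%, 34.3% and 36.1% of all tested genes. At 14 d prepartum the 3 sows held the highest value in 13, 13 and 10 members, and at 1 d postpartum sow 2 held it in 4. CSN2 was also highest in sow 2 at these 3 prepartum time points, with 15462 CPM in replicate 13, 30765 CPM in replicate 22 and 97481 CPM in replicate 31, and at 1 d postpartum it was highest in replicate 37 with 248107 CPM and lowest in sow 2 with 20610.1 CPM. The part of the stage of the gland, the diet and the scaling in this pattern was not tested.

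**Figure D3:**
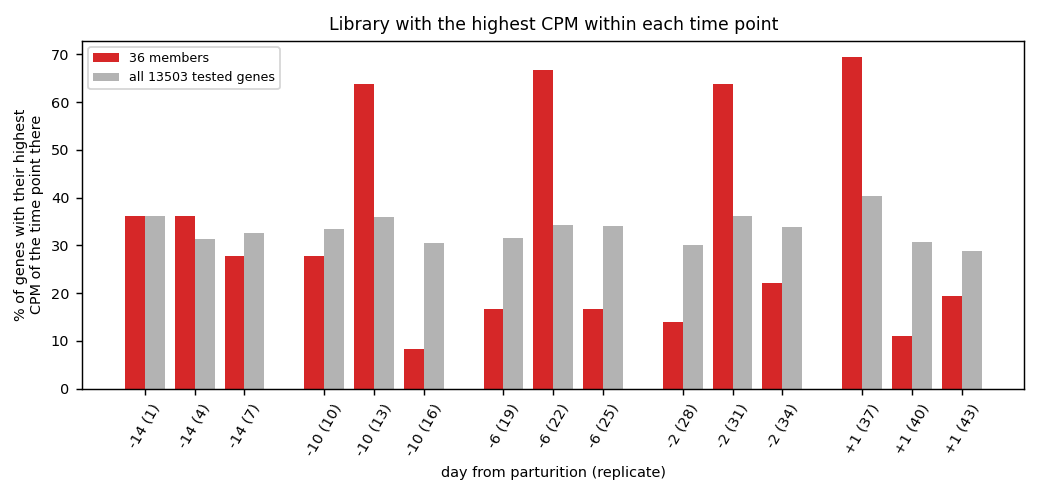
Share of genes (vertical axis, %) whose highest CPM within a time point was in the given library (horizontal axis, day from parturition with the replicate number in brackets), for the 36 members (red) and all 13503 tested genes (grey). The members' highest values gather in replicates 13, 22 and 31, all from sow 2, at 63.9% to 66.7%, and at 1 d postpartum in replicate 37 of sow 1 at 69.4%, while the grey bars stay between 28.8% and 40.4%.

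The step from 10 d to 6 d prepartum was the only comparison of time points that the rule did not use, and it was tested for all genes with the quasi-likelihood test of edgeR over the 15 libraries. At an adjusted p of 0.05 or less 0% of the 13503 genes were called, and so 0 of the 36 members, the smallest adjusted p being 0.145 over all genes and 0.607 among the members. No member was therefore shown to change between 10 d and 6 d prepartum. At an unadjusted p under 0.05, 953 genes (7.06%) passed, 466 of them higher at 6 d prepartum (3.45%). Of the members 11 passed, all higher at 6 d prepartum, which is 30.6% of them. The other methods called 28 genes with DESeq2, 1 gene with edgeR and the sow as a block, and 0 with limma-voom, none of them a member, with 1091, 1472 and 1183 genes at an unadjusted p under 0.05.

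Most members lay on the upper side of this step. The log2 fold change was above 0 in 34 of 36 members (94.4%), against 50.7% of all tested genes, and its median was 0.35 in the members and 0.00 over all genes. The genes that also reached 1.5 times their level of 14 d prepartum by 2 d prepartum but were not members, 1079 in number, lay between these values: 79.3% were above 0, the median was 0.26, and 9.08% were higher at an unadjusted p under 0.05. These genes did not have to clear 14 d prepartum in every library or reach 5 CPM, so they are not matched to the members. All 3 libraries of 6 d prepartum were above all 3 of 10 d prepartum in 9 members (25%), against 9.8% of all genes. With each sow taken against itself, 25 members (69.4%) were higher at 6 d prepartum in all 3 sows, against 22.9% of all genes, 9 in 2 sows and 2 in 1 sow, CYP1A1 and CRISPLD2. On the log2(CPM + 1) scale the median difference of the members was 0.35, 0.26 and 0.35 in sows 1, 2 and 3. The members share libraries and sows, so these shares describe the set and are no test of it.

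MSTN showed the largest log2 fold change of this step among the members, 0.94 ± 0.30 (SE) (edgeR, adjusted p = 0.607), and it was higher at 6 d prepartum in all 3 sows. The other named members at an unadjusted p under 0.05 were IL13RA2 with a log2 fold change of 0.81 ± 0.37 (SE), DAPK2 with 0.73 ± 0.30 (SE), EDNRB with 0.62 ± 0.22 (SE), PGRMC1 with 0.54 ± 0.21 (SE), GPD2 with 0.49 ± 0.20 (SE), AIG1 with 0.42 ± 0.17 (SE) and VGLL4 with 0.39 ± 0.17 (SE). All 7 of these were higher in all 3 sows as well, and 3 unnamed members passed in addition. At the other end lay LOC100153359 with -0.12 ± 0.38 (SE) and CRISPLD2 with -0.03 ± 0.23 (SE), both within their standard error of 0. CYP1A1 had a log2 fold change of 0.11 ± 0.94 (SE), with levels under 1 CPM in all 6 libraries compared. The number of members at an unadjusted p under 0.05 was 4 without replicate 10, 3 without replicate 16, 7 without replicate 19 and 5 without replicate 22, and it was 4 with no TMM scaling. The number over all tested genes was lower than 953 in these fits too, with 718, 513, 529 and 657 genes without those replicates and 833 with no TMM scaling.

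**Figure D4:**
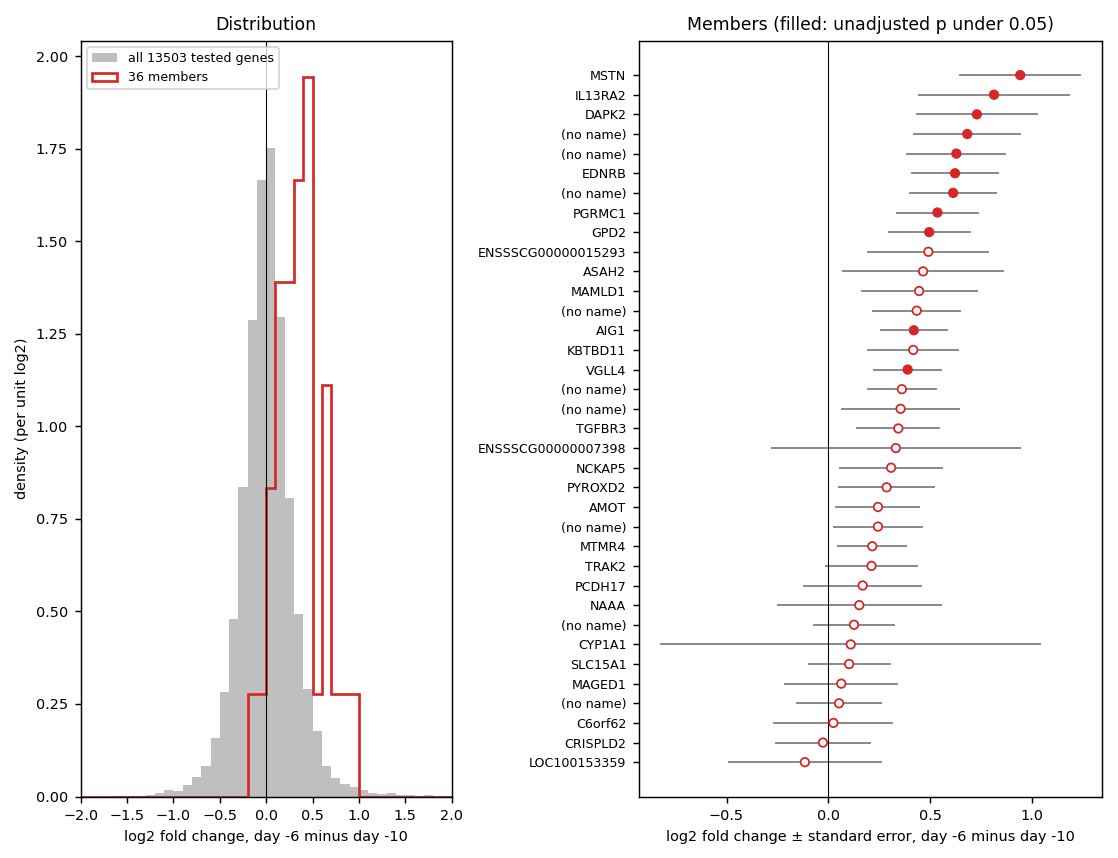
Left, density of the log2 fold change from 10 d to 6 d prepartum for all 13503 tested genes (grey) and the 36 members (red line). Right, the log2 fold change of each member with a standard error (bars) derived from the F statistic of the edgeR test. Points are filled where the unadjusted p was under 0.05. The values run from -0.12 to 0.94, 34 of 36 points lie above 0, and none passed after adjustment.

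Since the main test called 0 genes over the same step, no pathway list could hold a called gene. The counts below are at an unadjusted p under 0.05, which 7.06% of all tested genes passed, 3.45% being higher at 6 d prepartum. They are counts of 0 to 2 genes and describe the lists only. The lists did not hold ASAH2 or NAAA themselves. Of the 20 sphingolipid enzymes measured, to which ASAH2 is related, 1 was higher at an unadjusted p under 0.05 and 0 were lower, with a median log2 fold change of 0.01. Of 21 lysosomal proteins, listed for the compartment of NAAA, 0 passed in either direction and the median was 0.04. Among the 26 enzymes of acetyl-CoA, fatty acid and sterol synthesis 2 were higher and 0 lower, with a median of 0.19. Among the 5 aquaporins 1 was higher and 0 lower, with a median of 0.50. Of 13 keratins and barrier genes 1 was higher and 0 lower, with a median of 0.08. The 20 enzymes of hexosamines and nucleotides, the 11 neuroendocrine genes and the 14 Wnt receptors and modulators had 0 in either direction and medians of -0.03, 0.00 and -0.02.

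Summed levels of cell type marker lists were set beside the members, and such a sum leans to its most abundant genes. The 8 of 9 fibroblast markers measured summed to 4194 to 7835 CPM at 14 d prepartum, 3827 to 4390.5 CPM at 2 d prepartum and 2219 to 4167 CPM at 1 d postpartum. The 4 of 6 myoepithelial markers summed to 1185 to 1275 CPM at 14 d, 1077 to 1181 CPM at 2 d prepartum and 1518 to 2091 CPM at 1 d postpartum. The 4 of 7 adipocyte markers stood at 9.14 to 18.5 CPM at 14 d prepartum, 10.4 to 12.4 CPM at 2 d prepartum and 25.2 to 133 CPM at 1 d postpartum. The 10 of 11 myeloid markers were at 243 to 277 CPM at 14 d prepartum, 243 to 269 CPM at 2 d prepartum and 226 to 650.4 CPM at 1 d postpartum, the 11 of 13 lymphoid markers at 39.2 to 39.6, 36.98 to 41.04 and 28.3 to 32.5 CPM, and the 2 of 6 platelet markers at 76.6 to 89.8, 86.8 to 109 and 43.3 to 81.5 CPM. Of 3 erythroid markers 2 were measured and ranged from 21.03 to 76.2 CPM at 14 d prepartum, 52.6 to 201 CPM at 2 d prepartum and 46.9 to 70.5 CPM at 1 d postpartum. The 7 of 9 luminal markers summed to 1641 to 1956 CPM at 14 d prepartum, 1845 to 2510.3 CPM at 2 d prepartum and 2114 to 2731 CPM at 1 d postpartum. Within this list KRT8 and KRT18 went the other way before birth. Their means at these time points were 374, 194 and 434 CPM for KRT8 and 71.95, 32.4 and 86.4 CPM for KRT18. The luminal sum therefore does not hold for each marker. The part of cell type makeup in the members' course was not tested.

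Genes related to the members by sequence or pathway, picked after the values were seen, were set beside them. Of 22 such genes 0 met the rule. Of all tested genes 0.267% did, so the count of 0 says nothing particular about these genes or the members. The ratio of the mean at 2 d prepartum to the higher of the other means was 0.425 to 1.48. AHR, the receptor that acts on CYP1A1, went from 273 CPM at 14 d prepartum to 116 CPM at 2 d prepartum and 70.4 CPM at 1 d postpartum in the mean, while its partner ARNT stayed between 71.1 and 86.04 CPM. TIPARP, another target of that receptor, had its highest mean at 2 d prepartum and came closest to the rule, with means of 42.9, 63.5 and 31.2 CPM at the same time points, and NQO1, a further target, had 8.54, 8.17 and 5.44 CPM.

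PGRMC2, the paralogue of PGRMC1, had means between 49.7 and 60.4 CPM over the 5 time points. EDNRA, the other endothelin receptor, went from 23.4 CPM at 14 d prepartum to 13.2 CPM at 2 d prepartum, the opposite direction to EDNRB. IL13RA1, the signalling receptor of interleukin 13, was at 125 CPM at 2 d prepartum and 246 CPM at 1 d postpartum. GDF11, the closest relative of MSTN, went from 9.86 CPM at 14 d prepartum to 7.63 CPM at 2 d prepartum. TGFBR2 had means of 14.2, 24.7 and 40.6 CPM at 14 d and 2 d prepartum and 1 d postpartum, and of the peptide transporters related to SLC15A1, SLC15A2 stayed under 10 CPM in the mean at every time point and SLC15A4 was at 37.6, 37.6 and 47.7 CPM at those time points. ASAH1, the acid ceramidase, was also highest at 2 d prepartum, with means of 172, 213 and 166 CPM in the same order. These are descriptions without a test, since the comparisons share their libraries with the rule.

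**Figure D5:**
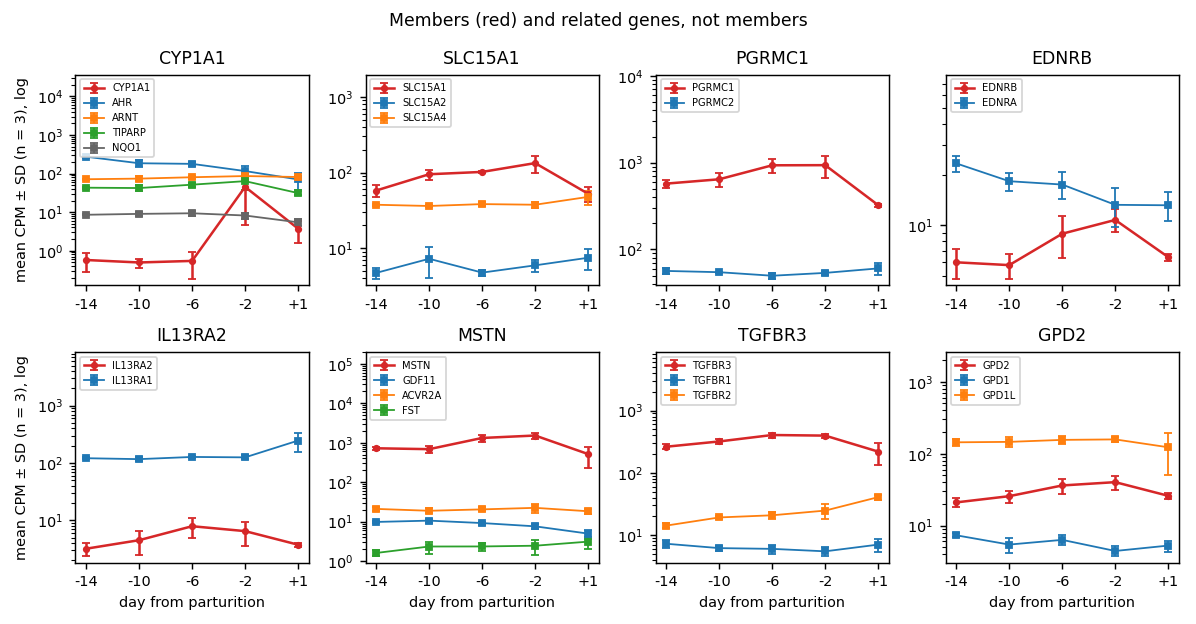
Mean CPM with SD (n = 3, log scale) by day from parturition for 8 members (red) and genes related to them. PGRMC2 stays near its base level where PGRMC1 is high before and low after birth. EDNRA is lower at 2 d than at 14 d prepartum where EDNRB is higher.

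The members lay on many chromosomes, with larger shares on X, 11 and 15 than those of all tested genes. On chromosome X lay 6 of the 36 (16.7%), MAGED1, PGRMC1, IL13RA2, MAMLD1, AMOT and an unnamed gene, where 3.17% of the tested genes are found. Chromosome 11 held 4 (11.1%), SLC15A1, LOC100153359, PCDH17 and EDNRB, against 1.83% of the tested genes, and chromosome 15 held 5 (13.9%), MSTN, TRAK2, NCKAP5, KBTBD11 and GPD2, against 3.64% of the tested genes. No member lay within 100 kb of another. These counts are a description, and the lengths of the members were ordinary, with a median of 2.02 kb of exon against 2.05 kb over all tested genes.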

How the data were processed

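Reads were trimmed with Trimmomatic, aligned by the authors to the pig genome with STAR 2.5.1b and assigned to exons with featureCounts of Subread 1.5.0, with strand, per the file headers and the submitters' processing notes. The deposited files hold raw counts per gene with coordinates of the Sscrofa10.2 assembly, on Ensembl identifiers. The genome build comes from the headers; the methods name a RefSeq annotation.

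From the counts, CPM was computed with TMM scaling in edgeR 4.0.16 (R 4.3.3) for genes with at least 1 CPM in at least 3 libraries. The comparison of 6 d with 10 d prepartum used the edgeR quasi-likelihood test over all 15 libraries with time as the only term and Benjamini-Hochberg adjustment over 13503 genes. This fit ignores that the same sows recur. The test gives no standard error, so the absolute log2 fold change over the square root of its F statistic was used. The script was tested on simulated data. The labels name no sow, and their replicate numbers are not shared between time points. Sow was read from the study's supplementary sample list, joined by total counts, and used only in alternatives and within-sow counts. Pairing by equal replicate numbers was not possible, but their order within each time point is that of the sows.

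Alternatives were RLE size factors, no TMM, other filters, DESeq2 1.42.0, limma-voom (limma 3.58.1), a sow term, counts thinned to the shallowest library and each library left out. Names came from the study's gene table (4 members) and, added after the rule for named genes had been set, from a reference table of Ensembl identifiers (21 members). Values per library are given for the 20 named members with the highest ratio of the mean at 2 d prepartum to the higher of the other means, and for 2 unnamed members, that with the highest ratio and that with the highest mean at 2 d prepartum. Of the lists, only members and called genes were to be named. The milk genes, KRT8 and KRT18 were picked after their values were seen. The members and lists were chosen with earlier results of these data known. Values from the study's own comparisons were not used.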

Additional observations from a re-analysis of the deposited data

How the results depend on the processing

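The set of 36 genes depended on the threshold, the scaling and single libraries. A 2-fold limit left 7 genes and a limit lower than 1.5-fold gave 92. Leaving out each library in turn gave 36 to 110 genes, the highest number without replicate 37 at 1 d postpartum and 66 without replicate 34 at 2 d prepartum, and 19 members were found in all 15 of these sets. RLE size factors gave 36 genes, all of them members, thinned counts 32 (31 members), no filter 38, and a mean at 2 d prepartum also above those of 10 d and 6 d prepartum, a definition chosen after seeing the data, gave 33. For the step from 10 d to 6 d prepartum the main test called 0 genes, DESeq2 called 28 and edgeR with the sow as a replicate block called 1; members called were 0 in every fit run. With total counts and no TMM the median log2 fold change was 0.23 in the members and -0.11 over all genes. In that setting 29 of 36 members lay above 0 and 30.4% of all genes did. The members stood 0.35 above all genes in either scaling. A change of scaling moves all genes by nearly the same amount, so this difference had to stay and is no check of the set. The median of the members was 0.27 to 0.43 when a library was left out, and 0.36 with the sow as a replicate block. The sign of CYP1A1 turned to -0.0145 with no TMM, to -0.0390 with limma-voom and to -0.0461 once sow entered limma-voom as a random effect, and ran from -0.56 to 0.42 when a library was left out; SLC15A1 turned to -0.0133 with no TMM. The cause was not tested. Of 425 ratios of named members recomputed under other scalings or without a library, 406 moved by less than the spread of the libraries, 19 moved by more and 0 reversed. The 425 include those without a library of 10 d or 6 d prepartum, which could change a ratio only through the scaling. They are also the values by which the rule chose the members. Most of the 19 came from total counts with no TMM. In that setting MSTN (2.10 to 1.58) and TGFBR3 (1.51 to 1.14) moved by more than the spread. So did NAAA, PYROXD2, C6orf62, AIG1, TRAK2, EDNRB, MTMR4, NCKAP5, KBTBD11, VGLL4 and CRISPLD2. Others, such as CYP1A1 and MAGED1, stayed within the spread in that setting. CYP1A1 was under 1 CPM in the 9 libraries up to 6 d prepartum.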
